A study of Mus musculus with 29 samples.

Results

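The nuclear factor I family of transcription factors has 4 genes in the mouse, Nfia, Nfib, Nfic and Nfix, and all 4 were measured among the 19938 genes of this study. Expression was read on arrays from C2C12 cells, an immortalised line of mouse myoblasts, the dividing precursors of muscle fibres, which stop dividing and form multinucleate myotubes in low serum. Proliferating cells at passage 27 were transfected for 36 h with 50 nM of a synthetic mimic of miR-365, miR-1, miR-145, miR-22, miR-34a, miR-29a or Let-7b, or with the oligonucleotide AllStar as negative control, so that all 8 transfected groups had met the same transfection reagent. Each group had 3 separate transfections; each control transfection was read on 2 arrays, which were averaged, giving 24 values from 27 arrays. One further array came from untransfected myoblasts and 1 from differentiated myotubes, and those states therefore have no replicates.

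For each gene the probe set was chosen by its mean over the 27 transfected arrays, the highest being taken among those that carry that symbol alone. The family had 6 of the 35556 probe sets. Nfic and Nfix had 1 each. For Nfia the mean was 7.46 for the probe set used and 6.01 for the other, and for Nfib it was 10.96 against 8.40. These means served only for the choice. Values are log2 expression, so 1 unit is a 2-fold difference, and levels of different probe sets are not compared. The median of the 12146 probe sets with no listed gene, 6.68, is used here as a mark of background. Nfia lay less than 1 unit above it in most samples, and the other Nfia probe set lay below it.

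Nuclear factor I proteins bind DNA as homodimers or heterodimers at a palindrome with the arms TTGGC and GCCAA, and they either activate or repress the genes they bind. Their DNA-binding domains are nearly alike, while the C-terminal parts that act on transcription differ. In skeletal muscle Nfix is the best studied of them: it is induced by Pax7 in fetal myoblasts and moves them from the embryonic to the fetal gene programme. Nfia and Nfib are best known from brain and lung development, and Nfic from the growth of tooth roots.

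MicroRNAs lower transcripts that pair with their seed, bases 2 to 8 of the mature strand. The mature sequences are shown because the strongest change in the family came under 1 of these microRNAs. They are RefSeq's guide strands on GRCm38.p6, written 5′ to 3′ with the seed in capitals; which strand sequence the mimics carried is not stated in the labels. Those of miR-1 and miR-145 are not shown.
miR-365-3p: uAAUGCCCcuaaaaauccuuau
miR-29a-3p: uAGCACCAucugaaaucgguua
let-7b-5p: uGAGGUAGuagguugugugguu
miR-22-3p: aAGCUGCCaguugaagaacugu
miR-34a-5p: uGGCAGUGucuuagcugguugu
The 5 seeds all differ. The same miR-365-3p is encoded at chr11:79726467-79726488 and at chr16:13453895-13453916, both on the plus strand, and its seed pairs with GGGCAUU in a transcript. Seed sites in the transcripts of the family were not analysed here.

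Myoblast markers were expressed throughout: all 5 (Myod1, Myf5, Cdh15, Des and Itga7) lay above the background median in all 24 values. Of the markers of other cell types, 0 of 4 endothelial, 0 of 2 measured bone and cartilage, 1 of 4 macrophage (Cd68), 2 of 4 adipocyte (Plin1 and Pparg) and 1 of 3 astrocyte markers had a control mean above it. Array medians ranged from 7.24 to 7.39. Differences between groups are limma estimates with the standard error (SE) of the fit, and a gene was called at an adjusted p under 0.05, adjusted by the Benjamini-Hochberg method over all genes within a comparison.

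Nfib was the member that moved most. Its level under miR-365 was 23.0% of that in the control. In the 3 control samples Nfib stood at 11.27, 11.45 and 11.38, and in the 3 miR-365 samples at 8.98, 9.75 and 9.02. The groups lay far apart, and the highest miR-365 sample was also below the lowest of all other transfected samples, miR-1 replicate 3 at 10.26. The mean fell from 11.37 to 9.25, a log2 difference of −2.12 ± 0.19 (SE, n = 3 per group) or 4.34-fold, with a 95% interval of 3.29 to 5.73 and adjusted p = 4.03e-08 in limma. Among all genes this was the largest fall under miR-365, followed by Neto2 at −2.06 ± 0.17 (SE), Golm2 at −1.99 ± 0.09 and Rp2 at −1.89 ± 0.10. The first place of Nfib is within these errors, and by limma p-value it ranked 102 of 19938 genes. Genes called lower made up 8.33% of all genes under miR-365, and those called higher 11.7%. Within samples of the same replicate number the difference was −2.29, −1.70 and −2.36. In bulk RNA, fewer transcripts in every cell and fewer cells with the transcript cannot be told apart.

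The second Nfib probe set also put the 3 miR-365 samples below every other sample. It stood at 8.89, 8.90 and 8.99 in the control and at 6.41, 6.81 and 6.35 under miR-365, without overlap. The miR-365 mean of 6.52 was below the background median of 6.68, so no fold is given for this probe set.

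**Figure D1:**
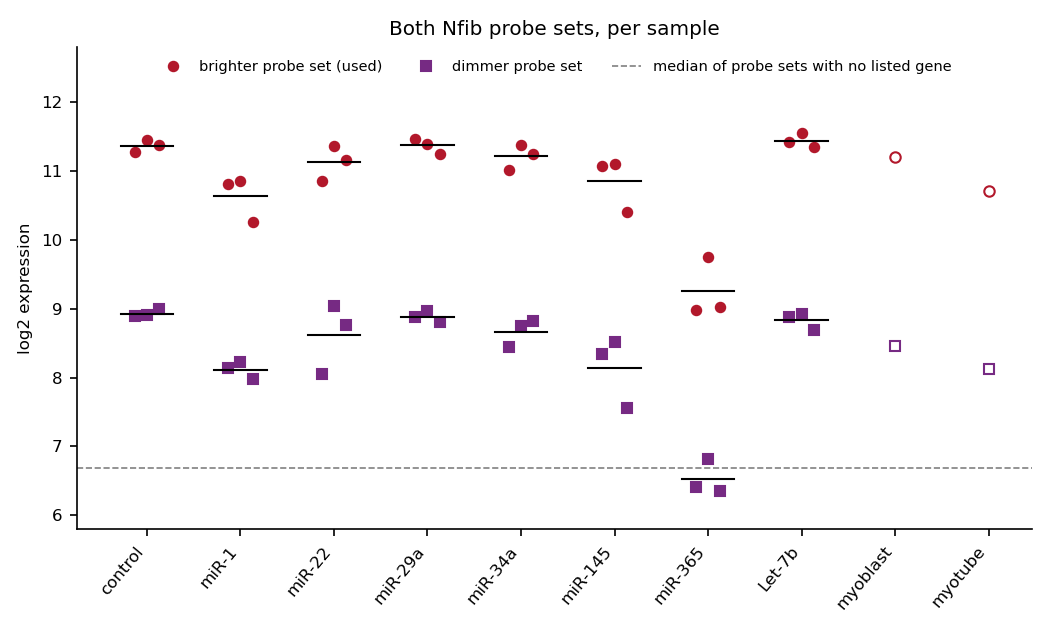
Log2 expression (vertical axis) of both Nfib probe sets in every sample, by group (horizontal axis); bars are means of 3 samples, open symbols single arrays, and the dashed line the background median of 6.68. Both probe sets are lowest in the 3 miR-365 samples; among the other transfected groups the means are lowest under miR-1 and then miR-145.

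Nfib also fell under miR-1, a microRNA of heart and skeletal muscle. The miR-1 samples stood at 10.81, 10.85 and 10.26, all 3 below all 3 control samples. The difference was −0.73 ± 0.19 (SE), 1.66-fold, with adjusted p = 0.00682 in limma, where 10.5% of all genes were called lower and 13.2% higher. Without miR-1 replicate 3 it was −0.54 and missed the threshold (limma adjusted p = 0.0723). The second probe set gave −0.81 with adjusted p = 0.0049.

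Under miR-145 the Nfib samples stood at 11.07, 11.11 and 10.40, again all 3 below all 3 control samples. The difference of −0.51 ± 0.19 (SE) did not pass (limma adjusted p = 0.128). Without miR-145 replicate 3 it was −0.28 (adjusted p = 0.619). It passed with replicate number as a block (limma adjusted p = 0.0274), but under miR-145 the numbers did not meet the criterion for pairing given with the processing. For the second probe set it passed as well (−0.79, limma adjusted p = 0.0212). That probe set stood at 8.34, 8.52 and 7.55 under miR-145, again lowest in replicate 3. Under miR-145, 3.00% of all genes were called lower and 3.85% higher.

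In the remaining 4 groups Nfib was not called. The difference was −0.24 under miR-22, −0.15 under miR-34a, 0.01 under miR-29a and 0.07 under Let-7b, with limma adjusted p from 0.513 to 0.998. The 95% intervals reached −0.64 for miR-22 and −0.55 for miR-34a, so a moderate fall there is within the error. In the order of the 8 group means, from Let-7b at 11.44 through miR-29a, control, miR-34a, miR-22, miR-145 and miR-1 to miR-365, the samples of neighbouring groups overlapped at every step but the last. The 8 means spanned 2.19, a wider range than for 99.7% of all genes, and the F test over the 7 comparisons gave adjusted p = 3.48e-08; 49.4% of all genes passed that test.

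Nfic, in contrast to Nfib, was higher than the control under 7 of 7 microRNAs. Its 3 control samples stood at 11.98, 11.59 and 11.50, the widest spread of any group for this gene (mean 11.69, SD 0.25). The miR-1 samples stood at 12.26, 12.25 and 12.09, the miR-22 samples at 12.23, 12.11 and 12.12, and the miR-145 samples at 12.24, 12.16 and 12.07. In these 3 groups every sample lay above every control sample.

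The rise of Nfic was 0.51 under miR-1 (limma adjusted p = 0.000515), 0.47 under miR-22 (0.00238) and 0.47 under miR-145 (0.00528), each with an SE of 0.10. Under miR-29a the samples were 12.32, 12.03 and 11.96, with a rise of 0.42 (limma adjusted p = 0.00851). Under miR-34a they were 12.12, 12.10 and 11.94, with a rise of 0.36 (0.0194). Under miR-365 they were 12.11, 12.05 and 11.90, and under Let-7b 12.08, 12.05 and 11.91, with rises of 0.33 (0.0203) and 0.33 (0.0378). In these last 4 groups 2 of 3 samples lay above all control samples, and the third lay below control replicate 1. Genes called higher made up 8.82% of all genes under miR-22, 5.54% under miR-29a, 5.62% under miR-34a and 5.46% under Let-7b. In the same order, 5.67%, 4.78%, 6.06% and 5.46% were called lower.

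The 7 rises of Nfic share the same 3 control values and are not 7 separate observations. When each microRNA was set against the average of the 6 others, a comparison free of the control, Nfic differed by −0.10 to 0.11 under every microRNA and was not called (limma adjusted p from 0.319 to 0.992). The single array of untransfected myoblasts read 12.25, above 22 of 24 transfected values, and the control mean lay 0.56 below it. That array also had a higher mean over 6 myotube markers than the control samples, 12.37 against 10.62 to 10.86. In samples numbered 1 the differences from the control were the smallest, from 0.11 under Let-7b to 0.34 under miR-29a, while for numbers 2 and 3 they ran from 0.40 to 0.66.

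In the model with group alone, several of the Nfic calls rested on single samples. Without control replicate 2 the rise was 0.37 under miR-29a, 0.31 under miR-34a, 0.28 under miR-365 and 0.28 under Let-7b, with limma adjusted p of 0.0554, 0.102, 0.103 and 0.173. Without control replicate 3 it was 0.32, 0.27, 0.24 and 0.23 in the same order and 0.37 under miR-145, with adjusted p of 0.0787, 0.148, 0.156, 0.248 and 0.053. The calls under miR-34a, miR-365 and Let-7b also ended without replicate 1 or 2 of the microRNA (adjusted p from 0.0599 to 0.126), and the call under miR-29a without its replicate 1 (0.062). The calls under miR-1 and miR-22 passed whichever sample was left out. With all samples and replicate number as a block, Nfic passed under miR-29a, miR-34a and miR-365 (limma adjusted p = 4.04e-05, 0.000164 and 0.000221). In these groups the replicate numbers met the criterion for pairing, and under miR-145 and Let-7b they did not.

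**Figure D2:**
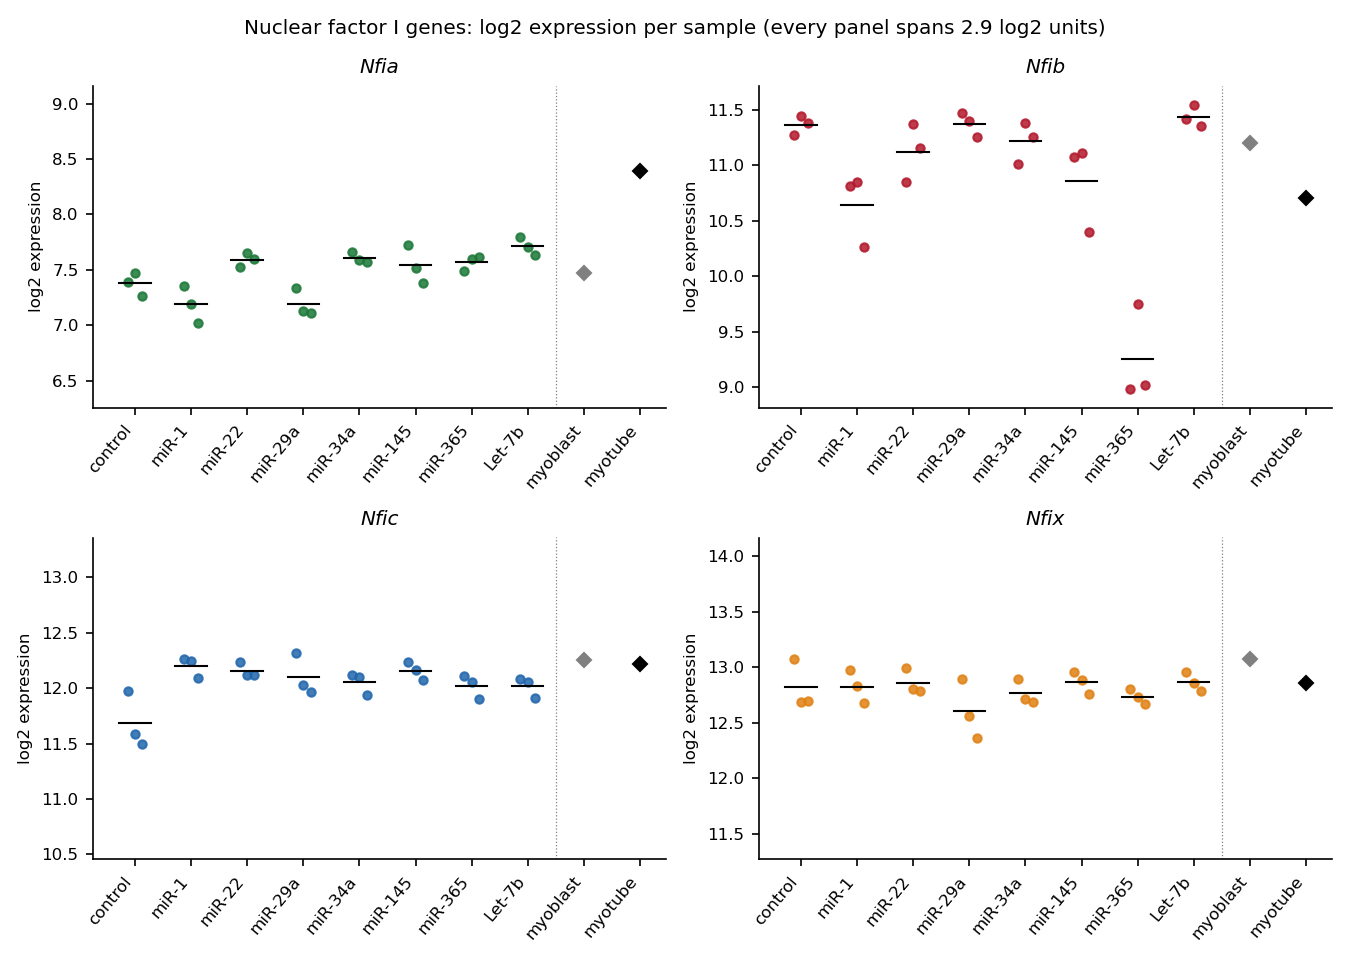
Log2 expression (vertical axes, all of the same length) of the 4 genes in every sample by group; circles are samples, bars means of 3, and diamonds the single arrays of untransfected cells right of the dotted line. Nfib drops under miR-365, the control is the lowest group for Nfic, and Nfia is highest in the myotube array at 8.39.

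Nfia rose under Let-7b, a microRNA that is abundant in differentiated cells. The control samples stood at 7.39, 7.47 and 7.27 and the Let-7b samples at 7.80, 7.71 and 7.63, without overlap. The difference was 0.34 ± 0.09 (SE), 1.26-fold, with limma adjusted p = 0.0205. The call ended without control replicate 3 (0.28, adjusted p = 0.125), without Let-7b replicate 1 (0.29, 0.0926) and without Let-7b replicate 2 (0.34, 0.0548). The dimmer Nfia probe set, which lay below the background median, differed by −0.11 (adjusted p = 0.814).

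In the other groups Nfia differed from the control by −0.19 under miR-1 and miR-29a and by 0.16 to 0.23 under miR-145, miR-365, miR-22 and miR-34a, with limma adjusted p from 0.134 to 0.378. Under miR-22, miR-34a and miR-365 all 3 samples lay above all 3 control samples, as under Let-7b, but Nfia was not called. The miR-1 samples were 7.35, 7.20 and 7.02 and the miR-29a samples 7.34, 7.13 and 7.11. The lowest groups stood apart more clearly from the other microRNAs than from the control. Against the mean of the other 6, Nfia was lower under miR-1 by −0.35 ± 0.07 (SE; adjusted p = 0.000629) and under miR-29a by −0.34 ± 0.07 (0.00132), and higher under Let-7b by 0.26 ± 0.07 (0.0103). In those comparisons 13.7% and 8.26% of all genes were called lower under miR-1 and miR-29a, and 8.19% higher under Let-7b.

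The same comparison without control arrays gave a Nfib difference of −1.86 ± 0.15 (SE) under miR-365 (limma adjusted p = 2.2e-09), where 11.3% of all genes were called lower. It also called Nfib higher under miR-29a by 0.62 (adjusted p = 0.00415; 8.80% of genes called higher) and under Let-7b by 0.69 (0.00137). The mean of the other 6 microRNAs includes the low miR-365 group, and against the control neither of these groups was called for Nfib.

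Nfix, the member with an established role in fetal myoblasts, was not called under any microRNA. All 24 values lay between 12.37 and 13.07. The 3 control samples stood at 13.07, 12.69 and 12.70, and the lowest group, miR-29a, at 12.89, 12.56 and 12.37, so the groups overlapped. Its difference of −0.21 ± 0.11 (SE) had adjusted p = 0.299 in limma, with a 95% interval from −0.44 to 0.01. The other 6 differences lay between −0.08 and 0.05, and their 95% intervals between −0.31 and 0.28. The F test for Nfix gave adjusted p = 0.407.

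For miR-29a the replicate numbers met the criterion for pairing, and with replicate number as a block the Nfix difference passed (adjusted p = 0.0119), as did the F test (0.00449). Within numbers the miR-29a difference was −0.18, −0.13 and −0.33. Without miR-29a replicate 1 it was −0.36 (limma adjusted p = 0.0318). The block raised the count of all genes called under miR-29a from 2058 to 3142.

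Samples with the same replicate number deviated together for these genes. For Nfix and for Nfic the sample numbered 1 was the highest in 8 of 8 groups. For Nfia this held in 5 of 8 groups. For Nfib the sample numbered 2 was the highest in 7 of 8 groups and that numbered 1 in the remaining group. The sample titles number the replicas, name no batch and do not say whether equal numbers in different groups were handled together.

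**Figure D3:**
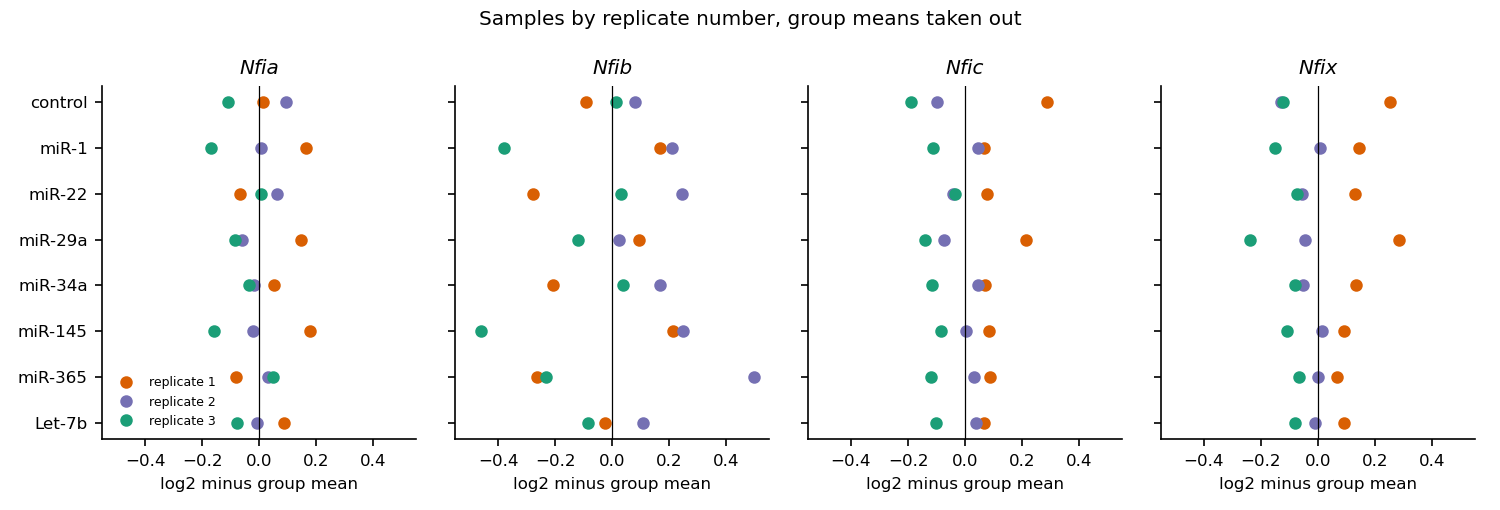
Each sample's log2 expression minus its group mean (horizontal axes), by group (rows) and coloured by replicate number, for the 4 genes. Replicate 1 is the rightmost point in 8 of 8 groups for Nfic and for Nfix; the widest spread within a group is that of Nfib under miR-365.

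Across the family, the 4 members did not move as one. Under miR-365, Nfib fell and Nfic rose, while Nfia differed by 0.19 (limma adjusted p = 0.184) and Nfix by −0.08 (0.754). Under miR-1 the same 2 members were called in the same directions, against Nfia at −0.19 and Nfix at 0.01. The rise of Nfic was not particular to these 2 groups, as it was called under every microRNA. Against the mean of the other 6 microRNAs it was not called under miR-365 (−0.09, limma adjusted p = 0.465) or miR-1 (0.11, 0.319). Under Let-7b, Nfia and Nfic were called higher. In the groups of miR-29a, miR-22, miR-145 and miR-34a Nfic was the only member called in the model with group alone. With replicate number as a block, Nfix under miR-29a (limma adjusted p = 0.0119) and Nfib under miR-145 (0.0274) passed too. The numbers met the criterion for pairing under miR-29a but not under miR-145. The second Nfib probe set also passed under miR-145 without the block (−0.79, limma adjusted p = 0.0212). It was read on the same samples and was likewise lowest in miR-145 replicate 3. The range of the 8 group means was 0.52 for Nfia, 0.51 for Nfic and 0.26 for Nfix beside 2.19 for Nfib. The F test gave adjusted p = 0.000141 for Nfia and 0.00413 for Nfic.

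**Figure D4:**
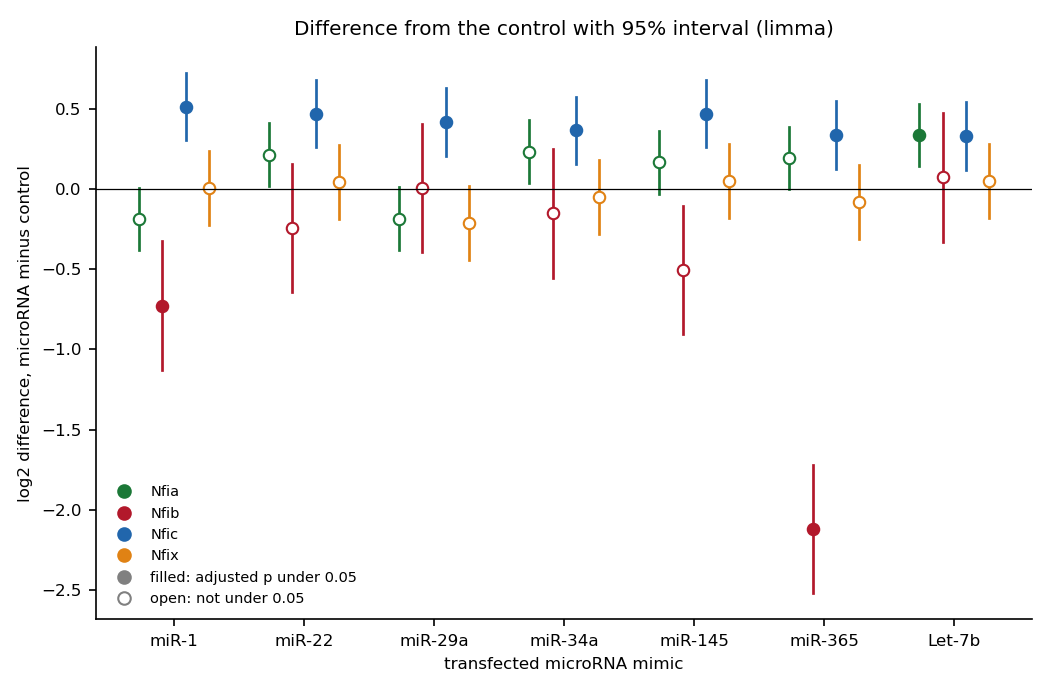
Log2 difference from the control (vertical axis) under each mimic (horizontal axis) for the 4 genes, with 95% intervals from limma; filled points have an adjusted p under 0.05. The lowest points are Nfib with miR-365 (−2.12) and with miR-1 (−0.73), and Nfic is filled under 7 of 7 mimics at 0.33 to 0.51.

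**Figure D5:**
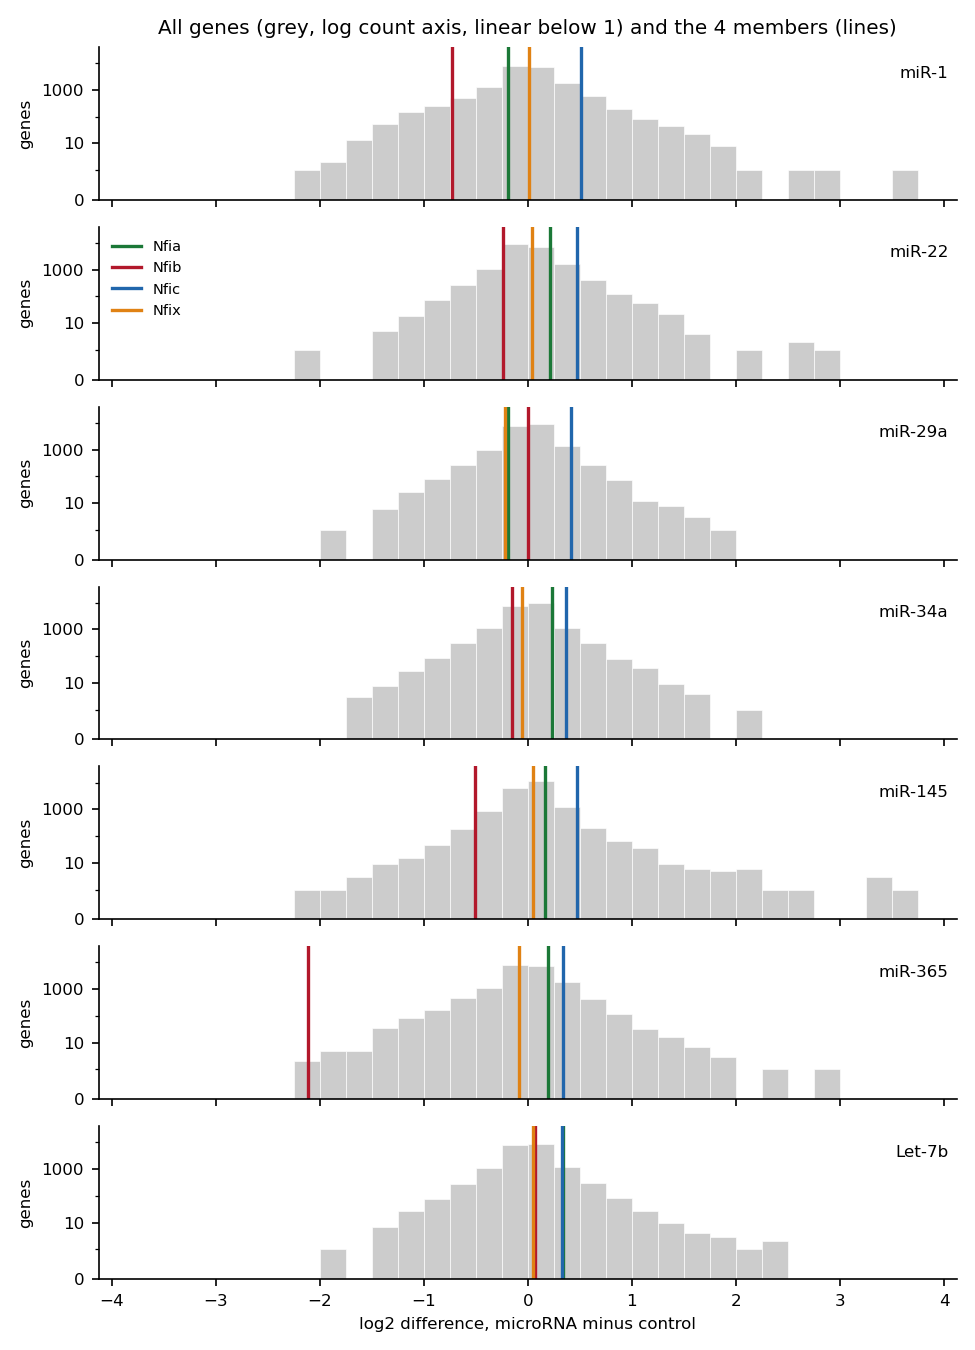
Number of genes (vertical axes, log scale above 1, linear below) by log2 difference from the control (horizontal axis) under each mimic, with the 4 members as lines. Nfib lies at the lower edge of the miR-365 distribution, and the other 3 members lie between −0.08 and 0.33 there.

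In differentiation the member with the largest difference was Nfia. It read 7.47 in the myoblast array and 8.39 in the myotube array, 1.90-fold higher, and the myotube value exceeded all 24 transfected values. The dimmer Nfia probe set rose from 5.88 to 6.47, which remained below the background median. Nfib read 11.20 in myoblasts and 10.70 in myotubes, 1.41-fold lower. Nfic read 12.25 and 12.22, and Nfix 13.07 and 12.86. With 1 array each there is no test; 7.42% of all genes were at least 1.5-fold higher in the myotube array and 6.11% at least 1.5-fold lower.

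The array labelled as proliferating untransfected myoblasts read above the control mean for each of 6 myotube markers. The mean over 6 myotube markers (Myog, Myh3, Ckm, Acta1, Tnnt3 and Mymk) was 12.37 there, against 10.62 to 10.86 in the control samples and 13.05 in the myotube array. Myog, the regulator that starts terminal differentiation, read 11.56 in it and 11.68 in the myotube array, with a control mean of 9.76. That array is single and was not transfected, so what set these markers apart from the control cannot be told. Their part in the differences between the untransfected arrays and other groups was not tested. Between the control mean and that array, Nfia differed by −0.09, Nfib by 0.17, Nfic by −0.56 and Nfix by −0.26. None reached 1.5-fold; among all genes 2.03% were at least 1.5-fold higher in the control and 3.27% at least 1.5-fold lower.

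The genes around Nfix in muscle were followed in a list of 15, of which 12 were measured: regulators upstream of Nfix (among them Pax7, Junb and Rock1), partners (Sox6, Prkcq and Mef2a) and genes that Nfix is known to act on (Nfatc4, Mstn, Myh7, Ckm and Eno3). Under miR-365, 1 of 12 was higher and 1 lower, with a list median of 0.04 beside 0.00 for all genes. These counts are near or below the shares of all genes called, 11.7% higher and 8.33% lower, and nothing is read from them about the list. The lower gene was Rock1, a kinase upstream of Nfix. It stood at 10.16, 10.10 and 10.21 in the control and 9.52, 9.71 and 9.54 under miR-365, a fall of −0.57 ± 0.11 (SE; limma adjusted p = 0.000705) without overlap. The higher gene was Myh7, the slow myosin heavy chain that Nfix holds down through Nfatc4. It stood at 8.16, 7.90 and 7.77 in the control and at 9.44, 8.74 and 8.86 under miR-365, a rise of 1.07 ± 0.19 (adjusted p = 0.000247).

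Myh7 also rose under miR-1, by 0.97 (limma adjusted p = 0.000474), and under miR-29a, by 0.70 (0.0176). Nfatc4 was not called under miR-365 (−0.09, adjusted p = 0.793) or under miR-1 (−0.36, 0.0502). Under miR-1, 4 of the 12 genes were higher and 1 lower (list median 0.05, all genes 0.00), where 13.2% of all genes were called higher and 10.5% lower, the highest shares against the control for all genes as well. Besides Myh7 these were Ckm, the muscle creatine kinase that Nfix activates in fetal muscle, at 1.12 (adjusted p = 0.000164), and Mef2a, a muscle transcription factor, at 0.64 (3.38e-07). Eno3, the muscle enolase, at 0.22 and the lower gene Pax7 at −0.47 (adjusted p = 0.0140 and 0.00598) are named after their values were seen.

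Under the other microRNAs 1 to 3 of the 12 genes were called: 1 higher under miR-22, miR-145 and Let-7b, 2 higher under miR-29a, and 2 higher and 1 lower under miR-34a. The shares of all genes called higher and lower were 8.82% and 5.67% under miR-22, 3.85% and 3.00% under miR-145, 5.46% and 5.46% under Let-7b, 5.54% and 4.78% under miR-29a, and 5.62% and 6.06% under miR-34a. Ckm rose by 0.93 under miR-22 (limma adjusted p = 0.00218), 0.93 under miR-145 (0.0051) and 0.71 under miR-34a (0.0214). Mef2a rose by 0.52 under miR-34a, 0.25 under Let-7b and 0.22 under miR-29a (adjusted p = 1.42e-05, 0.02 and 0.0449). Eno3 fell under miR-34a by −0.57 (1.46e-06), the 1 gene lower there. The list median was 0.02 under miR-22 (all genes −0.01), 0.09 under miR-29a (0.01) and 0.09 under miR-34a (0.02). It was 0.03 under miR-145 (all genes 0.04) and −0.03 under Let-7b (0.01).

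Ckm is itself 1 of the 6 myotube markers, whose mean differed between groups. It was 11.18 to 11.72 in the miR-1 samples, 11.42 to 11.47 under miR-22, 11.43 to 11.58 under miR-34a, 10.73 to 11.48 under miR-145, 10.87 to 11.35 under miR-29a, 10.95 to 11.02 under miR-365 and 9.77 to 10.52 under Let-7b. The control range was 10.62 to 10.86, and all 6 markers lay above the background median in all 24 values. The part of the degree of differentiation in these results was not tested. In the myotube array Ckm was 2.44-fold and Myh7 1.95-fold above the myoblast array, Nfatc4 was 1.74-fold below it, and the other 9 measured genes differed by less than 1.5-fold.

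A second list held 15 genes linked to nuclear factor I proteins outside muscle, all measured. Under miR-365, 2 of 15 were higher and 1 lower (list median −0.04, all genes 0.00), near the shares of all genes, 11.7% and 8.33%. Ski, a corepressor that binds nuclear factor I proteins, lay between 10.98 and 11.20 in the control and at 10.53, 10.40 and 10.39 under miR-365, a fall of −0.62 ± 0.07 (SE; limma adjusted p = 7.18e-07) without overlap. Klf4, a transcription factor of epithelia, rose by 0.50 (0.00246) and Bbx by 0.23 (0.0404). Klf4 rose as well under Let-7b, by 0.57 (0.00144), and under miR-145, by 0.50 (0.00799), as the 1 gene of the list called in each of these groups (list medians 0.03 and −0.03).

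Fabp7, a fatty acid binding protein of glia with nuclear factor I sites in its promoter, moved in both directions. It fell under miR-1 by −0.96 (limma adjusted p = 0.000607) and rose under miR-29a by 1.41 (3.31e-05) and under miR-34a by 0.60 (0.0455). The 3 genes lower under miR-1 were Fabp7, Ezh2, the histone methyltransferase of the polycomb complex, at −0.73 (1.79e-07), and the Notch target Hes1 at −0.47 (0.0164), with a list median of −0.02. Under miR-22 the 2 lower genes were Zcchc24 at −0.96 (7.21e-06) and Ezh2 at −0.34 (0.00236), with a list median of −0.09. Zcchc24 was also the lower gene under miR-34a, at −0.96 (6.49e-06; list median 0.04), and the collagen gene Col1a2 that under miR-29a, at −0.93 (1.45e-05; list median −0.04). Of the 15 genes, the calls were thus 3 lower under miR-1, 2 lower under miR-22, 1 higher and 1 lower under each of miR-29a and miR-34a, and 1 higher under each of miR-145 and Let-7b, to be read beside the shares of all genes given above. The list was drawn up with results of these arrays known, and these counts are a description from which nothing is read about the list.

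Promoter windows of 300 bases from RefSeq (GRCm38.p6) were matched for Nfia, Nfic and Nfix. A single arm of their site, TTGGC or GCCAA on either strand, was found in 3 of the 6 windows and in 46.7% of 32851 windows of all genes. Those 3 were among the 4 Nfix windows, and the remaining Nfix window had no such arm. The full site of TTGGC, 5 bases and GCCAA was found in none of the 6 and in 12 of all windows. The single arm occurred in 8 of 19 windows of the Nfix list and in 7 of 9 windows of the list outside muscle. The 19 windows came from 12 genes, among them Rock2, which was not measured, and 6 were of Sox6. The other 9 windows came from 9 of the 15 listed genes. Windows of the same gene are not separate observations, and nothing is read from these counts about the lists.

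The genes most like each member were ranked by Pearson's r over the 24 values, among the genes with a mean above the median of all genes. These points share arrays and groups, and r is a description. For Nfia they were Lats1 (r = 0.90), Pcyt1b (0.86) and Map2k6 (0.85), with Dnajb4 most opposite (−0.85). For Nfib they were Rbbp7, Fads1 and Rp2, with Pigl most opposite; as the miR-365 samples form a cluster of their own, r is given over the other 21 values, where it was 0.84, 0.83, 0.67 and −0.60. For Nfic they were Mcc (0.80), Mxra8 (0.80) and Rbm20 (0.78), with Snord57 most opposite (−0.71), and without the 2 samples farthest from the Nfic median r was 0.64, 0.61, 0.61 and −0.59. For Nfix they were Egr1 (0.86), Ap5s1 (0.83) and Fbxl18 (0.83), with Brms1 most opposite (−0.83). Over the 8 group means r with Nfix was 0.87, 0.90, 0.83 and −0.87. Nfix and Nfic were highest in the sample numbered 1 in 8 of 8 groups, and r over 24 values includes such deviations.

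The 3 genes most like Nfib were picked on the values that include its falls, so their own differences are given with no test. Rbbp7 differed from the control by −0.69 under miR-365 and −0.31 under miR-1, Fads1 by −0.96 and −0.42, and Rp2 by −1.89 and −0.31. The members themselves were weakly related over the 24 values: r was 0.46 for Nfia with Nfix, 0.45 for Nfic with Nfix and −0.09 to 0.10 for the 4 other pairs. These r also include the deviations shared by replicate number.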

How the data were processed

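The deposited values are log2 expression, 1 per probe set, made by the authors with RMA in Affymetrix Expression Console 1.1, per the submitters' processing notes; filters and genome build are not given in the sources used here. They were used as deposited. The platform annotation gave 1 symbol for 21789 of the 35556 probe sets, several for 1621 and none for 12146; 1 probe set per gene, that with the highest mean over the transfected arrays, left 19938 genes.

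Each control array was averaged with its technical repeat. The 24 values of 8 groups entered 1 linear model per gene, with group alone as its term (limma 3.58.1 under R 4.3.3, eBayes with a variance trend, 2-sided), and the code was tested on simulated data. Replicates are repeats of the experiment in 1 cell line, and precision is limited by how few arrays there are. The pairing of technical repeats is uncertain: an array correlated with its own repeat at r = 0.9958 to 0.9963, while control replicates 2 and 3 reached 0.9966. Replicate numbers were taken to pair samples where all 3 correlations of residuals with the control exceeded 0.1, as for miR-22, miR-29a, miR-34a and miR-365.

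The members and gene lists were chosen with earlier results of these data known, so no test here is independent support for the choice. Listed genes were named if called with all 3 values on 1 side of the control, up to 3 per list and microRNA with the largest change; any gene of the Nfix list could be named in the myotube comparison, and the 3 most alike genes and the most opposite one for each member. Alternatives were the handling of technical repeats, the replicate block, a filter on the 40% dimmest genes, a further quantile normalization, only 2 groups in the model, no variance trend, the other probe set, the mean of the other 6 microRNAs in place of the control, and leaving out each replicate.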

Additional observations from a re-analysis of the deposited data

How the results depend on the processing

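The fall of Nfib under miR-365 kept its direction and its call under all alternatives run, between −2.37 and −1.86 for the probe set used. The −1.86 is the difference from the mean of the other 6 microRNAs and not from the control. The other probe set was below the background median under miR-365 and gives no size. The technical repeats as a random block, the filter on dim genes and the further quantile normalization changed no call of a member. Replicate block: the replicate number as a block brought Nfix under miR-29a (−0.21, adjusted p = 0.0119), Nfib under miR-145 (−0.51, 0.0274) and the F test of Nfix (0.00449) past the threshold and changed no other call of a member; 23 of 24 values correlated best with a sample of their own number. It raised the genes called from 2058 to 3142 under miR-29a, from 1365 to 2444 under miR-145 and from 2177 to 3298 under Let-7b. Under miR-145 and Let-7b the numbers did not meet the criterion for pairing.

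With only the microRNA and the control in the model, Nfic lost its call under miR-29a (0.42), miR-34a (0.36), miR-145 (0.47), miR-365 (0.33) and Let-7b (0.33), and 654 genes were called under miR-145. Without the variance trend Nfic lost its call under Let-7b (0.33, adjusted p = 0.053). The cause of these changes was not tested.

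Against the mean of the other 6 microRNAs, Nfic lost its calls, at 0.11 under miR-1, 0.065 under miR-22, 0.064 under miR-145 and 0.0031 under miR-29a, and turned to −0.057 under miR-34a, −0.091 under miR-365 and −0.10 under Let-7b. Nfib turned to 0.33 under miR-22, 0.43 under miR-34a and 0.0202 under miR-145, lost its call under miR-1 (−0.24) and passed under miR-29a (0.62) and Let-7b (0.69). Nfia passed under miR-1 (−0.35) and miR-29a (−0.34). The genes called were 3400 under miR-29a, 3758 under miR-145 and 3682 under Let-7b. This comparison asks another question than that with the control.

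With the other probe set, Nfib turned to −0.048 under miR-29a and −0.10 under Let-7b and passed under miR-145 (−0.79). Nfia turned to −0.052 under miR-34a and −0.11 under Let-7b, at a signal below the background median, which limits that probe set. Between single arrays the other Nfia probe set gave 0.59 for myotube minus myoblast and 0.15 for control minus myoblast, and that of Nfib 0.47 for control minus myoblast.

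Leaving out single samples or the technical repeats moved Nfib from −0.83 to −0.54 under miR-1, −0.63 to −0.28 under miR-145, −0.37 to −0.11 under miR-22, −0.24 to −0.05 under miR-34a, −0.043 to 0.065 under miR-29a and 0.017 to 0.13 under Let-7b. Nfia ranged from 0.28 to 0.38 under Let-7b, −0.27 to −0.10 under miR-1 and 0.074 to 0.24 under miR-145. Nfic ranged from 0.31 to 0.56 under miR-29a, 0.27 to 0.51 under miR-34a, 0.37 to 0.61 under miR-145, 0.24 to 0.48 under miR-365 and 0.23 to 0.47 under Let-7b. Nfix ranged from −0.065 to 0.13 under miR-1, −0.023 to 0.17 under miR-22, −0.36 to −0.089 under miR-29a, −0.12 to 0.073 under miR-34a, −0.017 to 0.17 under miR-145, −0.15 to 0.042 under miR-365 and −0.015 to 0.18 under Let-7b. The genes called ranged from 1681 to 3041 under miR-22 (2888 with all samples), 1330 to 2202 under miR-29a, 1482 to 2288 under miR-34a (2330), 727 to 1562 under miR-145 and 1379 to 2286 under Let-7b. The lowest count came without control replicate 3 for miR-29a and without replicate 3 of the microRNA for the others.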
